A study of Mus musculus with 57 samples.

Results

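Ring1b and H3K27me3 were compared in mouse epiblast stem cells (EpiSCs) after 5 h of Wnt3a protein and before stimulation. The 6 libraries were chosen by their labels, out of 57 in the whole series. They were 1 Ring1b and 1 H3K27me3 library from Wnt3KO EpiSCs that received Wnt3a (125 ng/mL) for 5 h as the Wnt secretion inhibitor IWP2 was withdrawn, and 2 Ring1b and 2 H3K27me3 libraries (replicates 1 and 2) from Wnt3KO EpiSCs kept in IWP2 (2 µM), here called 0 h. All groups therefore lack Wnt3, and the change at 5 h joins the added protein to the withdrawal of the inhibitor. The labels do not say how many clones the knockout line comprises, or whether the 0 h replicates came from separate cultures, so the spread between them may be technical. EpiSCs are lines derived from the epiblast of the early embryo, and these were grown without feeder cells in Fgf-basic and Activin A.

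Polycomb proteins keep developmental genes silent through 2 complexes. Polycomb repressive complex 2 (PRC2) trimethylates lysine 27 of histone H3 (H3K27me3), and Polycomb repressive complex 1 (PRC1), of which Ring1b is the catalytic ubiquitin ligase, ubiquitinates histone H2A. Some PRC1 complexes are recruited through H3K27me3 and others reach CpG-rich promoters without it, so the 2 signals usually overlap but need not move together. Wnt ligands stabilise β-catenin, which joins TCF/LEF factors at their target genes. In the gastrulating embryo those targets include the mesoderm factor T (Brachyury) and the zinc-finger factor Sp5.

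The loci at which Ring1b regions were and were not listed after Wnt3a are illustrated by 4 promoters. Each sequence is the 250 bases before the gene's start, read 5′ to 3′ on the gene's strand from RefSeq on GRCm38.p6, a later build than the mm9 of the peak lists. Sp5 (chr2:70474673-70474922, plus strand) and T (chr17:8434173-8434422, plus strand) lie in windows in which Ring1b regions of both 0 h replicates were missing after Wnt3a. Cdx2, a caudal-type posterior regulator (chr5:147307250-147307499, minus strand), and Lhx1, a LIM homeobox factor of mesendoderm (chr11:84525535-84525784, minus strand), lie in windows that retained each such region. Capitals mark CTTTGA or its reverse complement TCAAAG, the core of the TCF/LEF motif, searched on both strands.
Sp5: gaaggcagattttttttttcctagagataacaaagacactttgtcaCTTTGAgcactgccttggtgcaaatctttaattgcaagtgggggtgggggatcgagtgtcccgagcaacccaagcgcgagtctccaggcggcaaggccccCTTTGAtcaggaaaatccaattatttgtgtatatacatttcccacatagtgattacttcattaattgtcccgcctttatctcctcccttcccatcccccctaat
T: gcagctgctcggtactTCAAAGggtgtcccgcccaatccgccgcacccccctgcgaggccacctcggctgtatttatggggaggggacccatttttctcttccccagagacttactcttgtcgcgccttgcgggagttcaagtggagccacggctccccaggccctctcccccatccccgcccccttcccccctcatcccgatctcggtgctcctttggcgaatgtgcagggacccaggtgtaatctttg
Cdx2: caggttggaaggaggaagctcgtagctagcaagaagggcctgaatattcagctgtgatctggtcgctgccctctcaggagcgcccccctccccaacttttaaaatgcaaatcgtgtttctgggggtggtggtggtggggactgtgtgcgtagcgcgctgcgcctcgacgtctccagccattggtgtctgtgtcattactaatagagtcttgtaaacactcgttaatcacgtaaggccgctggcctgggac
Lhx1: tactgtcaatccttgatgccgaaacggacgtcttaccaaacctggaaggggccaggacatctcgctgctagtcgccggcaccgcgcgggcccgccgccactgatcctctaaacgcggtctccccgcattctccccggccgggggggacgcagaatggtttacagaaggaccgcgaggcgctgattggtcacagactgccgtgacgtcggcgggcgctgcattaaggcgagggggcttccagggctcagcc
The core occurred 2 times in the Sp5 promoter and 1 time in that of T. It was absent from these windows of Cdx2 and Lhx1. These 4 promoters were picked after the values of their loci were seen. Lef1, with such a Ring1b region missing after Wnt3a, held the core 2 times in 1 promoter and 0 times in its others. Evx1, Foxa2, Pax6, Nkx2-2 and Sox1 also had such a region missing, and the core was absent from their promoters. Of all 32851 promoters of this length in the table, 13.8% held the core. CpG pairs numbered 6 in the Sp5 promoter, 14 in that of T, 13 in that of Cdx2 and 26 in that of Lhx1, with a median of 6 over all promoters. A match is a string of letters in the sequence and was not tested as a binding site.

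Each deposited file listed the peaks of 1 library in mm9, and peaks that overlapped an input region (chromatin sequenced without an antibody) were removed first. The lists carry no read totals, so depth is unknown and a region that is not listed may have been missed. The Wnt3a lists, the first replicates at 0 h and the inputs came from 1 processing folder, as the peak names show, and both second replicates from another. Of the 5 epiblast loci checked (Pou5f1, Sox2, Nanog, Otx2 and Fgf5), 5 held an H3K4me3 region at 0 h and 4 an H3K27ac region, and in none was Ring1b listed in both replicates. All 4 loci of other lineages (Gata4, Gata6, Pax6 and Sox1) held Ring1b in both replicates, 4 held H3K4me3 and 1 held H3K27ac. The H3K4me3 and H3K27ac libraries are of Wnt3KO EpiSCs labelled 0 h, but their labels do not state IWP2.

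The Ring1b list was longer after Wnt3a and the H3K27me3 list much shorter. Ring1b had 2029 regions after Wnt3a, against 1346 and 1651 in the 0 h replicates, and it covered 1665 kb after Wnt3a against 1328 ± 105 kb at 0 h (SD, n = 2). H3K27me3 had 796 regions after Wnt3a, against 4106 and 6064 at 0 h, and it covered 356 kb after Wnt3a against 3642 ± 1297 kb at 0 h (SD, n = 2). The Wnt3a library lay outside the range of the 0 h replicates for both marks and in opposite directions. Regions were also shorter after Wnt3a, with a median of 389 bp for H3K27me3 against 495.5 and 524 bp at 0 h, and 521 bp for Ring1b against 664.5 and 540 bp at 0 h. The H3K27me3 list after Wnt3a also held the largest share of regions shared with an input list, 21.3%, against 5.22% and 2.76% at 0 h. The Ring1b share was 9.58% after Wnt3a, against 16.1% and 7.40% at 0 h. The part of library quality in the short H3K27me3 list was not tested.

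**Figure D1:**
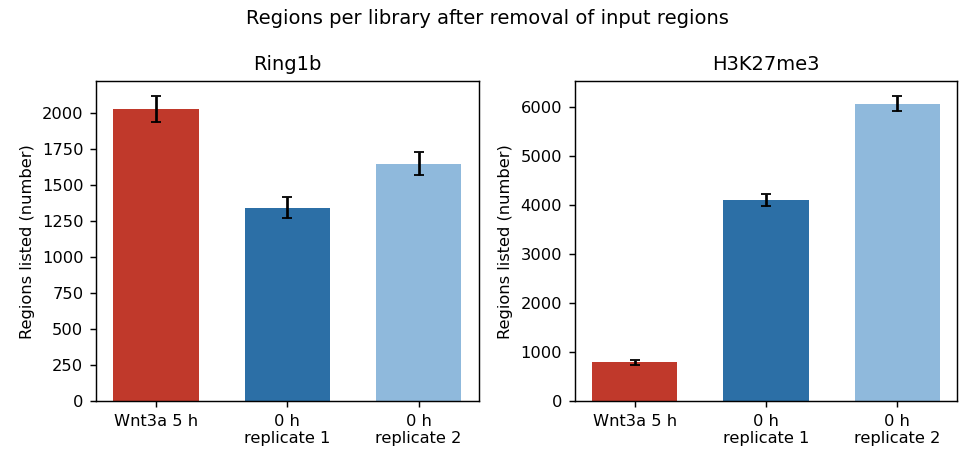
Number of regions in each library after removal of input regions, for Ring1b (left) and H3K27me3 (right), with the Wnt3a library in red and the 0 h replicates in blue. Bars are single libraries and whiskers are 95% exact Poisson intervals of the counts. Ring1b stands at 2029 after Wnt3a against 1346 and 1651 at 0 h, and H3K27me3 at 796 after Wnt3a against 4106 and 6064 at 0 h.

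Ring1b regions were largely listed again after Wnt3a and H3K27me3 regions mostly were not. Regions at 0 h were those of replicate 1 that overlapped replicate 2 by at least 1 bp, and such a region is called kept when the Wnt3a list overlapped it and lost when it did not. Ring1b kept 912 of 1007 regions, 90.6% (95% Wilson interval 88.6 to 92.2), and H3K27me3 kept 657 of 3396, 19.3% (18.1 to 20.7). The difference of 71.2 percentage points was 67.1 points when the Wnt3a lists were set against replicate 1 alone, which shares their folder. With the lists of each mark cut to equal length, Ring1b kept 81.0% and H3K27me3 44.3%, a difference of 36.7 points. The same difference between the marks, taken from one 0 h replicate to the other with full lists, was -7.89 and 12.3 points (SD 14.3). At matched length, replicate 2 held 74.8% of Ring1b and 22.7% of H3K27me3 regions of replicate 1, and the Wnt3a list 73.4% and 16.4%. Of the replicate 2 regions, replicate 1 held 63.2% and 13.7%, and the Wnt3a list 56.3% and 10.8%. At those lengths the marks parted to a similar extent between the 0 h replicates. New regions, listed after Wnt3a and in neither 0 h replicate, made up 36.7% of the Ring1b list (744 of 2029) and 3.64% of the H3K27me3 list (29 of 796). With lists of equal length the order was the other way, 31.9% for Ring1b and 44.0% for H3K27me3. The new share of H3K27me3 was 10.1% without replicate 2 and 6.03% without replicate 1. Against a single 0 h replicate, 46.5% and 46.4% of the Ring1b regions after Wnt3a were missing from replicate 1 and from replicate 2. Between the 0 h replicates themselves, 25.2% of replicate 1 was missing from replicate 2 and 36.8% of replicate 2 from replicate 1. The Wnt3a list held 2029 regions and the 0 h lists 1346 and 1651, so unequal length enters these shares. They were not taken at matched length.

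The H3K27me3 list after Wnt3a was compared with a 0 h list of its own length. When the replicate 2 list of H3K27me3 was cut to its 796 regions of highest fold enrichment, it held 22.7% of the replicate 1 regions, and the Wnt3a list of the same length held 16.4%. In the other direction the Wnt3a list held 10.8% of the replicate 2 regions and the cut replicate 1 list 13.7%. For Ring1b, the Wnt3a list cut to 1651 regions held 73.4% of the replicate 1 regions, and replicate 2 held 74.8%. Cut to 1346 regions, it held 56.3% of the replicate 2 regions, and replicate 1 held 63.2%. At matched length the Wnt3a list minus the other 0 h replicate thus came to -1.41 and -6.97 points for Ring1b and to -6.36 and -2.89 points for H3K27me3. For Ring1b this depended on the ranking: averaged over both directions the difference was -4.19 points by fold and 0.478 points when regions were ranked by the authors' −log10 p.

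The share listed again followed the strength of a region at 0 h for both marks. The regions of replicate 1 were split into 5 quintiles by the authors' fold enrichment, which was used only to order regions within a list. From the weakest to the strongest quintile, the Wnt3a list held 63.7%, 74.0%, 84.8%, 95.9% and 98.9% of Ring1b regions. The second 0 h replicate held 52.6%, 63.6%, 70.3%, 89.2% and 98.5%. At equal length (1651 regions) the Wnt3a list held 36.7%, 60.2%, 77.3%, 94.1% and 98.9%, which was below the second replicate in the weaker quintiles and above it in the stronger ones. Of the H3K27me3 regions, 7.30%, 7.19%, 10.4%, 18.9% and 38.1% were in the Wnt3a list, in the same order. The second replicate cut to 796 regions held 5.60%, 12.2%, 15.5%, 25.8% and 54.6%, and uncut it held 75.8% in the weakest and 97.2% in the strongest quintile. The Wnt3a list held a larger share than the cut replicate in the weakest quintile and a smaller one in the other 4.

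**Figure D2:**
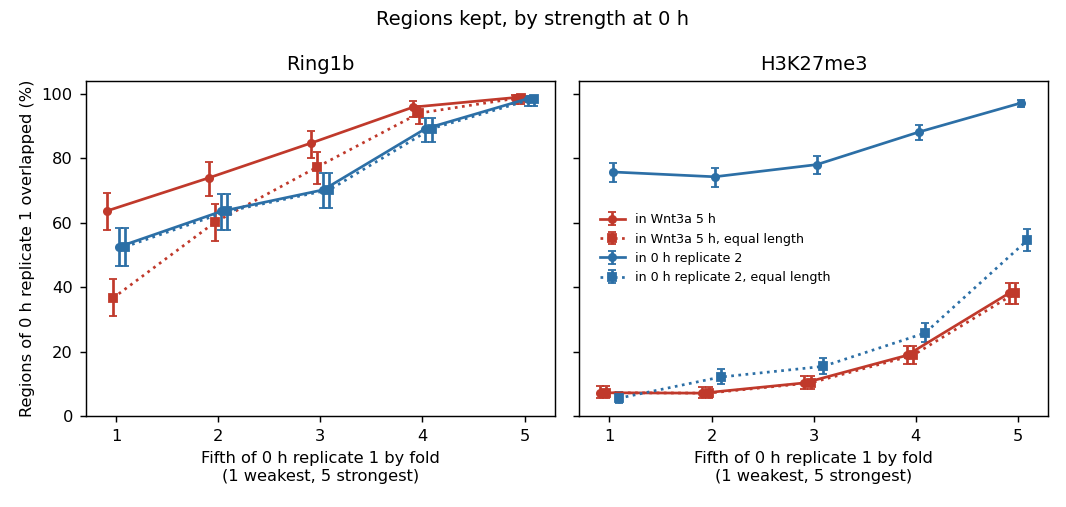
Share of the regions of 0 h replicate 1 that were listed in the Wnt3a library (red) and in 0 h replicate 2 (blue), by quintile of fold enrichment in replicate 1, for Ring1b (left) and H3K27me3 (right). Solid lines are full lists, dotted lines are lists cut to equal length, and whiskers are 95% Wilson intervals. For Ring1b all lines meet near 98.5% to 98.9% in the strongest quintile, and for H3K27me3 the Wnt3a line reaches 38.1% against 54.6% for the cut replicate.

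Ring1b regions with H3K27me3 made up a smaller share after Wnt3a. Of the Ring1b regions, 16.3% overlapped an H3K27me3 region after Wnt3a, against 69.2%, 82.5%, 57.1% and 72.6% in the 4 pairings of 0 h libraries (mean 70.4% ± 10.5, SD of 4 pairings that share 2 libraries of each mark). The share moved with the H3K27me3 list used: Ring1b regions after Wnt3a overlapped the 0 h H3K27me3 lists in 53.7% and 66.2%, and 0 h Ring1b regions overlapped the Wnt3a H3K27me3 list in 21.2% and 15.3%. With the H3K27me3 lists cut to 796 regions, the share was 16.3% after Wnt3a and 20.2% ± 3.42 at 0 h, a difference of -3.98 points, little more than the SD. Seen from the other mark, 47.1% of the H3K27me3 regions listed after Wnt3a overlapped Ring1b, against 22.6% ± 3.31 at 0 h with full lists and 31.3% ± 4.06 with lists cut to 796. That share also moved with the Ring1b list used: 42.2% of the Wnt3a H3K27me3 regions overlapped Ring1b of replicate 1 and 34.5% that of replicate 2.

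**Figure D3:**
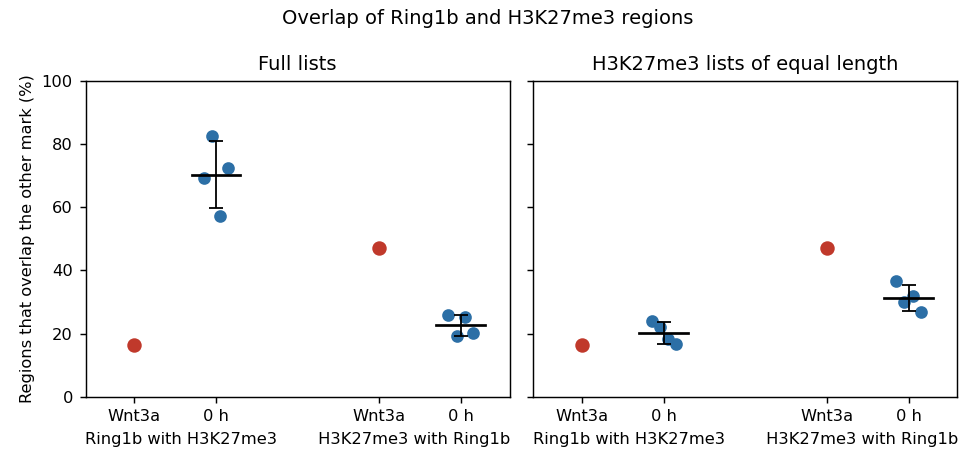
Share of Ring1b regions that overlap H3K27me3 and of H3K27me3 regions that overlap Ring1b, with full lists (left) and with H3K27me3 lists cut to 796 regions (right). The red point is the Wnt3a pair of libraries, blue points are the 4 pairings of 0 h libraries, and bars give their mean and SD. The share of Ring1b with H3K27me3 is 16.3% after Wnt3a against 70.4% at 0 h with full lists and 20.2% with cut lists.

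The most frequent outcome for a region that carried both marks was to be listed for Ring1b alone. Of the 1007 Ring1b regions of both replicates, 725 overlapped H3K27me3 in both replicates, 103 in neither and 179 in 1. After Wnt3a, 471 of the 725 (65.0%, 95% Wilson interval 61.4 to 68.4) had Ring1b alone, 210 (29.0%) had both marks, 41 (5.66%) had neither and 3 (0.414%) had H3K27me3 alone. Regions with both marks were longer, with a median of 1510 bp against 905 bp for Ring1b alone. Of the 103 regions without H3K27me3 at 0 h, 78 (75.7%) kept Ring1b alone, 24 had neither and 1 had both. A 0 h replicate with a list as short gave a similar split. Of 932 regions with both marks in replicate 1, 572 (61.4%) had Ring1b alone after Wnt3a, and 550 (59.0%) had Ring1b alone in replicate 2 once its H3K27me3 list was cut to 796 regions. H3K27me3 alone was listed at 17 of the 932 after Wnt3a and at 83 in the cut replicate.

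A larger share of H3K27me3 regions was kept where Ring1b was present. After Wnt3a, 244 of 834 H3K27me3 regions with Ring1b in both replicates were listed (29.3%), against 317 of 2207 with Ring1b in neither (14.4%). In the cut second replicate the order was the other way, 24.3% against 27.4%, except in the strongest quintile, with 58.6% against 57.4%. The contrast after Wnt3a held within every quintile of H3K27me3 strength, from 11.6% against 8.52% in the weakest to 49.8% against 32.6% in the strongest. H3K27me3 regions with Ring1b were also longer, with a median of 725 bp against 511 bp. The H3K27me3 list after Wnt3a overlapped H3K4me3 in 32.5% of its regions, against 35.2% and 38.6% in the full 0 h lists. In the 0 h lists cut to the same number by fold the shares were 58.5% and 74.9%, but those regions were longer, with medians of 960.5 and 1307.5 bp against 389 bp after Wnt3a.

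Leading regions show these classes in the authors' fold enrichment. The strongest region with both marks retained, at chr6:83018657-83021598, had a Ring1b fold of 29.2 after Wnt3a against 24.0 and 48.0 at 0 h, and an H3K27me3 fold of 5.74 after Wnt3a against 8.17 and 9.10 at 0 h. The strongest region with Ring1b alone after Wnt3a, at chr4:114728779-114731945, had a Ring1b fold of 23.5 after Wnt3a against 24.5 and 26.996 at 0 h. Its H3K27me3 fold was 5.48 and 5.77 at 0 h, and no H3K27me3 region was listed there after Wnt3a. In the next such region, at chr4:115609361-115612534, Ring1b had a fold of 18.3 after Wnt3a against 15.4 and 31.1 at 0 h, and H3K27me3 was listed only at 0 h, with 3.29 and 4.29. The folds are quoted as the peak caller gave them, and their differences between lists were not tested. The strongest H3K27me3 region that was not listed after Wnt3a, at chr11:18775100-18776880, had folds of 9.95 and 10.0 at 0 h and kept Ring1b. In contrast, the strongest H3K27me3 region that was kept, at chr1:172999529-173000229, had a fold of 9.16 after Wnt3a against 11.3 and 12.8 at 0 h and no Ring1b in any library.

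Ring1b regions that appeared after Wnt3a lay mostly where H3K4me3, a mark of promoters, was already listed at 0 h. Of the 744 new regions, 85.2% (95% Wilson interval 82.5 to 87.6) overlapped an H3K4me3 region of Wnt3KO EpiSCs at 0 h, 23.7% an H3K27ac region (a mark of active promoters and enhancers) and 83.9% open chromatin of wild-type EpiSCs by ATAC-seq. Among the 912 kept regions those shares were 52.5%, 1.54% and 58.8%, and among the 95 lost regions 25.3%, 0% and 40.0%. The labels of the H3K4me3 and H3K27ac libraries do not state IWP2, unlike those of the Ring1b and H3K27me3 libraries at 0 h. A smaller share of the new regions carried H3K27me3 at 0 h, 28.4% in replicate 1 and 40.1% in replicate 2, against 75.4% and 90.6% of the kept regions. Regions that differed between the 0 h replicates had smaller shares of H3K4me3 and H3K27ac than the new regions. H3K4me3 was found at 54.3% of regions of replicate 1 missing from replicate 2 and at 48.4% of regions of replicate 2 missing from replicate 1, and H3K27ac at 2.36% and 10.4%. Their H3K27me3 shares in replicates 1 and 2 were 57.5% and 64.6% for the first of these sets and 28.3% and 46.6% for the second, which was close to the new regions.

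New regions were weaker and shorter than the rest, and the H3K4me3 difference was seen at both levels of strength. Their median percentile by fold in the Wnt3a list was 38.6. Their median length was 382 bp, against 915 bp for kept regions, which were measured as replicate 1 regions. Within the Wnt3a list, new regions had a median of 359 bp below the median fold, against 463.5 bp for the other regions. Above it the medians were 427 and 1149 bp. Below the median fold of the list, 82.1% of new regions and 42.0% of the other regions overlapped H3K4me3. Above it the shares were 91.3% and 65.6%. The strongest new region, at chr5:140273659-140274108, had a fold of 12.8 and lay in open chromatin without H3K4me3. The next, at chr16:31201218-31201644 with a fold of 11.7, overlapped both H3K4me3 and open chromatin, and neither held H3K27me3 in any library. The Ring1b library at 5 h has no replicate, and the part of unspecific recovery of open chromatin in the new regions was not tested.

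**Figure D4:**
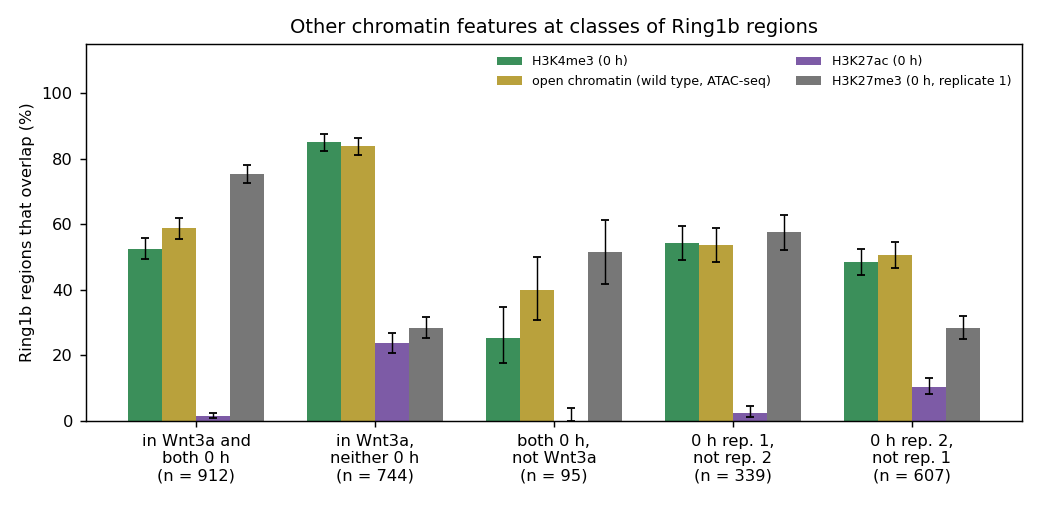
Share of Ring1b regions that overlap H3K4me3 at 0 h, open chromatin in wild-type EpiSCs, H3K27ac at 0 h and H3K27me3 in 0 h replicate 1, for kept, new and lost regions and for regions listed in 1 of the 0 h replicates and not in the other. Whiskers are 95% Wilson intervals. New regions reach 85.2% for H3K4me3 and 23.7% for H3K27ac, against 52.5% and 1.54% for kept regions.

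At developmental loci the Ring1b regions missing after Wnt3a were unevenly spread. The loci were 34 windows in 5 lists, placed in mm9 around the genes. In 7 mesendoderm loci, 15 of 16 Ring1b regions of both 0 h replicates were kept, in 6 neural loci 22 of 25, in the Hox clusters and their neighbours 18 of 26, and in 9 posterior and Wnt-target loci 3 of 9. The share over all Ring1b regions was 90.6%. Of the 26 regions of the Hox list, 20 were in the weakest quintile of replicate 1, where 65.0% of them and 72.5% of all regions of both replicates were kept. The 9 regions of the posterior list came from Sp5 (5), Cdx2 (2), T (1) and Lef1 (1), so they are few and regions of one locus are not independent.

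Sp5, a direct target of Wnt signalling, had less Ring1b after Wnt3a over most of its window. Ring1b covered 882 bp in 2 regions after Wnt3a, against 4107 bp and 3388 bp, in 5 regions each, at 0 h. The strongest of replicate 1, at chr2:70313936-70315526 with a fold of 10.8, was still listed after Wnt3a as 2 shorter regions. Their folds were 5.95 and 7.19. Replicate 2 also had a shorter region there, of 781 bp with a fold of 7.31, close to the higher Wnt3a value. The other 4 regions of replicate 1 were not listed after Wnt3a. Among them were chr2:70312911-70313497, with a fold of 8.37 in replicate 1 and 6.56 in replicate 2, and chr2:70311039-70312196, with 6.62 and 8.30. H3K27me3 covered 0 bp after Wnt3a, against 3758 and 5631 bp at 0 h. With full lists both marks were thus below both 0 h replicates at Sp5. With lists of equal length (1346 regions, the full length of replicate 1) Ring1b had 2 regions after Wnt3a against 5 and 5 at 0 h. With 796 regions in each list, H3K27me3 had 0 after Wnt3a against 1 and 0 at 0 h, so it was not below both replicates.

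At T, the Brachyury gene that marks the primitive streak, Ring1b had no region after Wnt3a, against 1 in each 0 h replicate with 1090 and 323 bp and folds of 5.87 and 5.65. H3K27me3 at T covered 324 bp after Wnt3a, against 3457 and 3531 bp at 0 h. With 796 regions in each list, T had 1 H3K27me3 region after Wnt3a against 1 and 1 at 0 h. Lef1, which encodes a factor that binds DNA with β-catenin, had no Ring1b region after Wnt3a, against 328 and 1501 bp at 0 h, and its H3K27me3 was listed only in replicate 2 at 0 h. Cdx2 kept both its Ring1b regions, but they covered 2218 bp after Wnt3a against 4470 and 5376 bp at 0 h. Ring1b thus covered less than in both 0 h replicates at Sp5, T, Lef1 and Cdx2, as it did at HoxB, Evx1, Gsc, Foxa2, Pax3 and Sox1. With lists of equal length, T had 0 Ring1b regions after Wnt3a against 1 and 1 at 0 h, Lef1 0 after Wnt3a against 1 and 2 at 0 h, and Cdx2 1 after Wnt3a against 2 and 3 at 0 h. Loci of other lists were also lower in this count, such as Lhx1 with 3 after Wnt3a against 5 and 5 at 0 h, Pax6 with 2 after Wnt3a against 7 and 4, Foxa2 with 2 after Wnt3a against 3 and 3, Nkx2-2 with 7 after Wnt3a against 8 and 10, and Evx1 with 2 after Wnt3a against 6 and 3. In the window of the Wnt3a gene, 707 bp of Ring1b were listed after Wnt3a protein against 0 and 309 bp at 0 h, and Cdx1, Axin2 and Tbx6 had no region of either mark in any of the 6 libraries.

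Strong Ring1b regions were rarely missing elsewhere. Of the 505 regions of both replicates in the strongest 2 quintiles, 6 (1.19%) were not listed after Wnt3a, and 3 of those 6 lay at Sp5 or T. The region at T had a fold of 5.87 in replicate 1, the lower limit of these 2 quintiles, and the others lay at the single locus Sp5. The posterior list held 5 regions of these 2 quintiles in all, and the 2 that were kept lay at Sp5 and Cdx2. In the strongest quintile alone, 2 of 265 were missing, one at Sp5 and one at chr6:51955962-51956444, which overlapped H3K4me3 and open chromatin and had folds of 9.22 and 7.31 at 0 h. These loci were listed with earlier results of the same data known, so the counts are a description.

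As groups, the mesendoderm and neural loci had Ring1b over about the same total length, and H3K27me3 covered less after Wnt3a than in both 0 h replicates at each of them. Gata6, an endoderm factor, had 6901 bp of Ring1b after Wnt3a, against 6633 and 6609 bp at 0 h, and 1169 bp of H3K27me3 after Wnt3a, against 5504 and 9079 bp at 0 h. Lhx1 had 7825 bp of Ring1b after Wnt3a, against 5393 and 5614 bp at 0 h, and 2837 bp of H3K27me3 after Wnt3a, against 8965 and 9677 bp at 0 h. Olig2, a neural progenitor factor, had 5246 bp of Ring1b after Wnt3a, against 5187 and 5839 bp at 0 h, and 999 bp of H3K27me3 after Wnt3a, against 5179 and 6650 bp at 0 h. Over the 7 mesendoderm loci Ring1b covered 30767 bp after Wnt3a against 28361 and 30359 bp at 0 h, and over the 6 neural loci 27648 bp after Wnt3a against 26209 and 29045 bp at 0 h. Single loci varied: Ring1b at Gsc, Foxa2, Pax3 and Sox1 covered less after Wnt3a than in both 0 h replicates, with 4105 bp at Gsc after Wnt3a against 4486 and 5168 bp at 0 h. With Ring1b lists of equal length the mesendoderm loci had 16 regions after Wnt3a against 18 and 18 at 0 h, and the neural loci 20 after Wnt3a against 30 and 29 at 0 h. Lists of equal length gave the other order for H3K27me3 at these loci. With 796 regions in each list, the mesendoderm loci had 12 H3K27me3 regions after Wnt3a against 3 and 5 at 0 h, and the neural loci 8 after Wnt3a against 2 and 2 at 0 h.

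In the Hox clusters, which pattern the body axis, the number and covered length of Ring1b regions lay within the range of the replicates. Of the 19 cluster regions of both 0 h replicates, however, 13 (68.4%) were kept, against 90.6% of all Ring1b regions. The 4 clusters held 41 Ring1b regions after Wnt3a, against 51 and 33 at 0 h, covering 24740 bp after Wnt3a against 31718 and 20299 bp at 0 h. H3K27me3 had 0 regions in the clusters after Wnt3a, against 6 and 15 at 0 h. Those regions were weak: none of the 796 strongest H3K27me3 regions of either 0 h replicate lay in a cluster, so their loss was not detectable at equal length. Ring1b regions of the clusters were weak as well. With 1346 regions in each list, 1 cluster region was left after Wnt3a and 4 in replicate 2, while the 51 of replicate 1 were not trimmed because its list has that length. Evx1, the homeobox gene next to HoxA, had 0 bp of H3K27me3 after Wnt3a, against 7953 and 9805 bp at 0 h. With 796 regions in each list, Evx1 had 0 H3K27me3 regions after Wnt3a against 0 and 0 at 0 h. Its Ring1b covered 2361 bp after Wnt3a against 6010 and 4720 bp at 0 h.

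**Figure D5:**
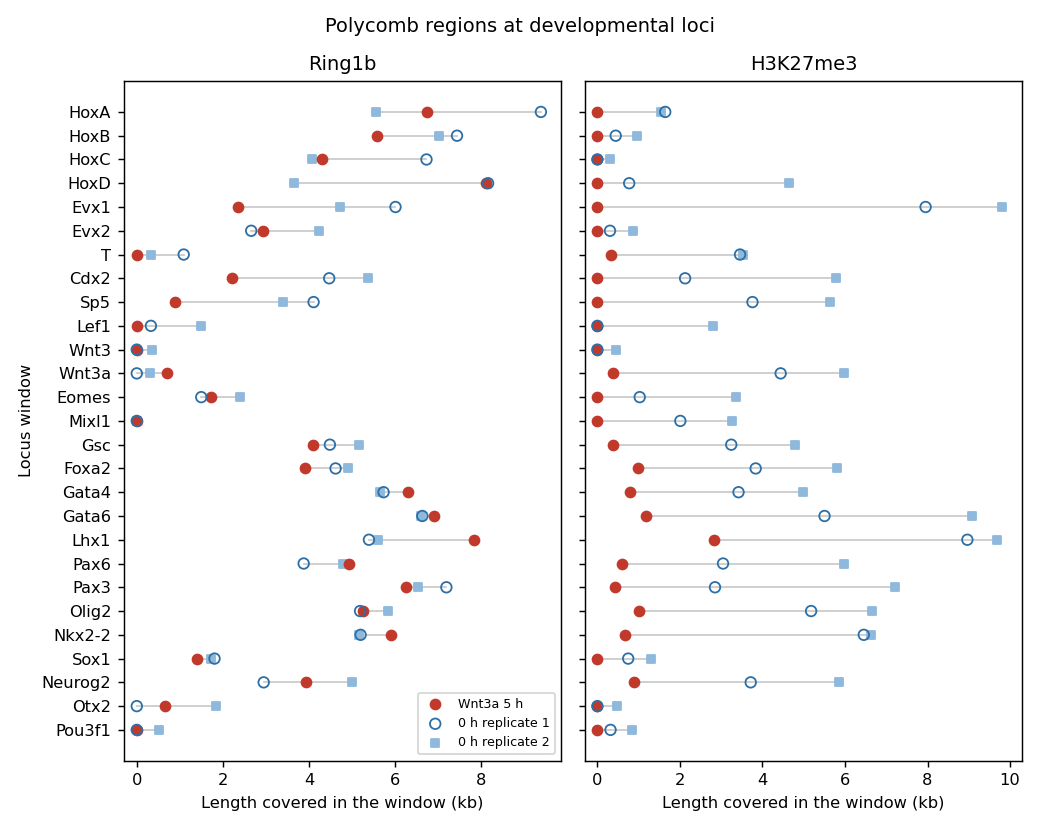
Length covered by Ring1b (left) and H3K27me3 (right) regions in each locus window with a region in any library, in kb, after Wnt3a (red) and in the 0 h replicates (open circle, replicate 1; square, replicate 2). The grey line joins the lowest and highest library. Ring1b after Wnt3a lies below both replicates at HoxB, Evx1, T, Cdx2, Sp5, Lef1, Gsc, Foxa2, Pax3 and Sox1, with the widest gap to the nearer replicate at Sp5, and H3K27me3 after Wnt3a covers 1169 bp or less at every locus shown except Lhx1.

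The CHIR99021 series of the same line gives a reference at other times and with a GSK3 inhibitor in place of Wnt3a protein. Ring1b kept 90.6% of its 0 h regions at 5 h of Wnt3a and 19.9% at 72 h of CHIR99021 (3 µM), in a list of 454 regions. H3K27me3 kept 19.3% at 5 h of Wnt3a, 40.3% at 6 h of CHIR99021, 44.9% at 12 h and 39.5% at 72 h, in lists of 2478, 2967 and 2958 regions. These comparisons share the 0 h libraries, and agent, time and list length differ between them, so no difference is drawn from them.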

How the data were processed

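ChIP-seq was measured in 6 libraries. Per the submitters' processing notes, Bowtie 1.1.0, SAMtools 0.1.19 and MACS2 2.1.0 were used with build mm9. The background library of the peak calls is not named in these notes. The deposited lists give, per the file format, the authors' fold enrichment (a ratio over local background), −log10 p, −log10 q and a score. Fold ranked regions within a list. It was also quoted for leading regions and loci, where its differences between lists were not tested. Other deposited peak lists (H3K4me3, H3K27ac, ATAC-seq, CHIR99021) served as reference lists.

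Overlapping peaks were merged, and regions that overlapped either input list (253 and 424 regions) by 1 bp were removed. Overlap meant at least 1 bp. With 1 library at 5 h no test was possible, so values were set against the spread of the 0 h replicates. Wilson and Poisson intervals (95%) cover counting error only. Depth is unknown. Positions of the locus windows in mm9 rest on general knowledge of that build, because the RefSeq table used is of GRCm38, and they were checked by gene length and by H3K4me3. Msgn1 was not analysed here. Regions named are the leading ones by fold in each class, more than 100 kb from an input region, and loci are named by list. The members, lists and loci were chosen with earlier results of these data known. The promoters shown were picked after the values of their loci were seen. The overlap code was tested on simulated regions. Python 3.11.15, pandas 2.3.3, numpy 2.4.6 and scipy 1.17.1 were used.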

Additional observations from a re-analysis of the deposited data

Results flagged for a closer look

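The marks moved in opposite directions in the number of regions and in covered length, and the difference between the marks was not tested, since each has 1 library at 5 h. Ring1b had more regions after Wnt3a than the 0 h mean, by 530.5, while H3K27me3 differed by -4289. The covered length differed by 336.9 kb for Ring1b and by -3286 kb for H3K27me3. In all 4 cases the Wnt3a library lay outside the range of both 0 h replicates.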

How the results depend on the processing

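Of 157 alternative values for 22 results, 122 stayed within the replicate spread or the counting interval, 33 moved and 2 reversed. For the kept and new shares the spread was the SD of the 0 h replicates' overlaps in the 2 directions. Unequal list lengths enter that SD. For H3K27me3 it was 22.5 points, above the main values of 19.3% and 3.64%, so no fall could count as moved. The causes of the moves and reversals were not tested, except that shorter lists hold fewer regions by construction. With lists of equal length, Ring1b kept 81.0% and H3K27me3 44.3% of 0 h regions (difference 36.7 points), new H3K27me3 regions were 44.0%, covered length differed by 98.3 kb (Ring1b) and -674 kb (H3K27me3), Ring1b with H3K27me3 by -1.63 points (-3.98 with only H3K27me3 cut), Hox regions by -26.5 (Ring1b, where only replicate 1 is left untrimmed, so the value follows from the list lengths) and 0 (H3K27me3), and Ring1b at 72 h of CHIR99021 was 38.6%. The share of both-mark regions with Ring1b alone was 42.2% at equal length, 75.3% at −log10 q of at least 5, 55.4% with regions within 1 kb merged, 57.1% with input regions kept and 56.2% with regions of either replicate. With the cut second replicate in place of Wnt3a it was 59.0%, counted as moved against 65.0% of the 725 regions of both replicates. That value is of the 932 both-mark regions of replicate 1, where the Wnt3a share was 61.4%. With regions of either replicate, Ring1b kept 66.6% and the difference between marks was 56.5 points. The H3K4me3 difference of new against kept regions, 32.7 points, was 21.9 with merging, 28.4 with input kept and 25.0 with either replicate. Merging gave -2331.5 H3K27me3 regions. The strongest minus weakest quintile was 41.1 points for Ring1b at an overlap of 50% and 19.6 for H3K27me3 at −log10 q of at least 5. Ranking by −log10 p reversed the matched-length Ring1b difference to 0.478 points.

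Leaving out one 0 h replicate at a time made the whole list of the other the 0 h regions, 1651 or 1346 for Ring1b. These sets are larger than the 1007 regions of both replicates, of which 90.6% were kept. Ring1b then kept 70.0% to 83.4%, and new Ring1b regions were 46.4% to 46.5%. Ring1b regions in the Hox clusters differed by -10 to 8, the reversal coming without replicate 1. Ring1b alone followed at 60.9% to 61.4% of the both-mark regions of the remaining replicate. The H3K4me3 difference was 23.3 to 26.98 points, and the quintile difference of H3K27me3 was 23.0 to 30.8 points. H3K27me3 kept 16.4% without replicate 2 and 10.8% without replicate 1, and its new regions were 10.1% and 6.03%. The 0 h libraries share replicate numbers across marks, and with pairings of the same number alone (a replicate block) the difference in Ring1b with H3K27me3 was -54.6 points against -54.1. The labels name no shared culture or day.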
